A study of Mus musculus with 189 samples.

Results

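The 5 Mas-related G protein-coupled receptor genes Mrgprb1, Mrgprb2, Mrgprb8, Mrgprb13 and Mrgpra4 were followed in single cells of the mouse mast cell lineage. They were taken by symbol from a count table of 46078 gene rows, 33 of which carried an Mrgpr symbol, so that 28 other genes of the family could be set beside them. All were peritoneal cells of female C57BL/6 animals, 4 in number, with no treatment or genetic change given in the labels. The 94 mature mast cells were sorted as live, lineage-negative, c-Kit+ FcεRI+ cells with low integrin β7 and high side scatter, and the 95 basophil-mast cell progenitors (BMCPs) as cells of the same positive markers with high integrin β7 and low side scatter. FcεRI is the high-affinity receptor for IgE, and side scatter rises with the granules of a cell. The study profiled late mast cell differentiation. The labels do not say which animal a cell came from. Each group therefore stands for a single pool without replicates, a test between groups could not be run, and the intervals below cover counting error only. No time was measured: timing here means the order in which receptors appear when cells are arranged by how much of a mast cell's granule proteases they express.

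Mrgpr genes encode receptors with a single exon for the coding region, and many of them are known from sensory neurons of the skin. Mast cells of connective tissue and of the peritoneal cavity also carry some of them. Mrgprb2 is the mouse counterpart of human MRGPRX2 and is the receptor through which basic peptides, such as substance P, and several cationic drugs trigger mast cell degranulation without IgE. Mrgprb1, Mrgprb8 and Mrgprb13 are close relatives in the same gene group, and Mrgpra4 belongs to the Mrgpra branch. The receptors couple to G proteins of the Gq and Gi classes, which act through phospholipase C and calcium release.

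All 5 genes lie within the Mrgpr group of chromosome 7, on the GRCm38 build that the mm10 counts also use. Mrgprb1 (ENSMUSG00000070547) spans chr7:48444113-48456342 on the minus strand with 4185 exon bases, and Mrgprb2 (ENSMUSG00000050425) spans chr7:48550965-48558086 on the minus strand with 2077 exon bases. Mrgpra4 (ENSMUSG00000067173), also on the minus strand, is a single exon of 1259 bases at chr7:47980837-47982095. On the plus strand, Mrgprb13 (ENSMUSG00000099620) is a single exon of 985 bases at chr7:48311304-48312288, and Mrgprb8 (ENSMUSG00000050870) is a single exon of 1123 bases at chr7:48388526-48389648. GENCODE lists Mrgprb13 as an unprocessed pseudogene, whereas RefSeq lists it as protein coding; the other 4 are protein coding in both. No annotated gene overlapped any of the 5.

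The sequences just before these starts are shown because these neighbours, whose upstream sequences are related within pairs, were read in different numbers of cells. They are the 250 bases before the RefSeq start on GRCm38.p6, written 5′ to 3′ on the gene's own strand. Capitals mark matches to GATAA, the core bound by GATA factors, to the E-boxes CACGTG and CATGTG, which factors such as Mitf can bind, and to TGTGGT, a core of Runx factors, on either strand; no 2 of the matches shown overlap.
Mrgprb2, chr7:48558087-48558336, minus strand: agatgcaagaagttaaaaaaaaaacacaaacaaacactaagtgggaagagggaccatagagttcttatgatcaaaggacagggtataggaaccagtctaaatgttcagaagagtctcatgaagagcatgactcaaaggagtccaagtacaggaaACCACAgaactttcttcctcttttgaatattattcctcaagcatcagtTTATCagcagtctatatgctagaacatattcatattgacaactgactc
Mrgprb1, chr7:48456343-48456592, minus strand: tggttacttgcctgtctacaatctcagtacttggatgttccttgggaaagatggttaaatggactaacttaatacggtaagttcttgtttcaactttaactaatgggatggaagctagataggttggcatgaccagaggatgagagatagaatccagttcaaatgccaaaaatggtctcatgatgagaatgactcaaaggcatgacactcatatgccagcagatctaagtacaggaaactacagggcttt
Mrgprb13, chr7:48311054-48311303, plus strand: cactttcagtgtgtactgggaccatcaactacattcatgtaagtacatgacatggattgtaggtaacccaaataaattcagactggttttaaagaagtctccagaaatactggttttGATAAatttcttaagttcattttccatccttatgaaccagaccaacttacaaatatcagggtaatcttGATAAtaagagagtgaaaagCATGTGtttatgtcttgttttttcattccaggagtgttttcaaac
Mrgprb8, chr7:48388276-48388525, plus strand: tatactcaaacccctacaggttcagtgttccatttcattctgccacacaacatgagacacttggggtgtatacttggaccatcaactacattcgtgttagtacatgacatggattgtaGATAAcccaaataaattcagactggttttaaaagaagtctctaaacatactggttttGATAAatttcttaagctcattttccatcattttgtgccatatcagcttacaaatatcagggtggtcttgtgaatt
The Mrgprb2 window held 1 GATAA match, written as TTATC, and 1 TGTGGT match, written as ACCACA. The Mrgprb1 window held none of the 4 motifs. The windows of Mrgprb13 and Mrgprb8 held 2 GATAA matches each, and that of Mrgprb13 also held 1 CATGTG. The window of Mrgpra4 held none, but the 50 bases after its RefSeq start were not in an annotated transcript, so that window may not adjoin a true start. Among 32851 windows of the same length before RefSeq starts, 22.6% held GATAA, 14.05% TGTGGT, 12.3% CATGTG and 6.02% CACGTG, so a match is common and is a description only. The Mrgprb2 and Mrgprb1 windows aligned over 163 bases with 70.6% identity, and those of Mrgprb13 and Mrgprb8 over 192 bases with 87.5% identity. With the window of the neighbouring gene Mrgprx2 included, 4 of 15 pairs aligned over at least 150 bases. The others were Mrgprx2 with Mrgprb1 (218 bases, 85.8%) and with Mrgprb2 (168 bases, 71.4%). The windows of Mrgprb1 and Mrgprb2 did not align that far with those of Mrgprb13 and Mrgprb8.

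Depth was similar in both groups. Of 189 cells, 187 had at least 100000 reads on mouse genes and were kept: all 94 mature mast cells (561600 to 2152221 reads, median 1255267) and 93 BMCPs (344022 to 2091665, median 1247890). A level is given as CPM, the reads of a gene scaled to a total of 1000000 reads on mouse genes in that cell, or in all kept cells of a group together for a pooled level. Synthetic ERCC RNA was added to every well. The median number of mouse reads per ERCC read was 562 in BMCPs and 939 in mature mast cells. Values per ERCC read are given for the 5 receptors where they change a direction or a size. Ratios of other genes are in CPM only, and their direction per ERCC read was not tested. The 8 mast cell markers (Kit, Fcer1a, Ms4a2, Cpa3, Cma1, Tpsb2, Mcpt4 and Hdc) had reads in both groups, with a median summed level of 161600 CPM in BMCPs and 274480 CPM in mature mast cells. Over the 10556 genes with at least 5 pooled CPM in either group, the median log2 ratio of mature mast cells over BMCPs was -0.25, after adding 1 CPM to each level.

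Mrgprb1 separated the groups most clearly among the receptors with many reads. It ranged from 500.0 to 7195 CPM over the 94 mature mast cells, with a median of 3583, and from 0.512 to 5812 CPM over the 93 BMCPs, with a median of 9.65. Every mature mast cell was high, whereas the BMCPs fell into a high and a low set with few cells between them. A level of 100 CPM was taken as having a receptor; 42 BMCPs reached it (45.2%, exact 95% binomial interval 34.8 to 55.8), 47 were under 10 CPM and 4 lay between. The pooled level was 1099.5 CPM in BMCPs and 3764 CPM in mature mast cells, a 3.42-fold difference and a log2 ratio of 1.77 (1.77 to 1.78 by counting error); per ERCC read the log2 ratio was 2.69, or 2.48 without BMCP 55, which held many ERCC reads. In the 42 BMCPs that had it, the median was 2380 CPM with quartiles of 1289 and 3612, against quartiles of 2781 and 4583 in mature mast cells, so the upper set of BMCPs overlapped the mature range.

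Every BMCP had at least 1 Mrgprb1 read. In most of those under 100 CPM its level was also seen for Gzmb in mature mast cells. The 51 BMCPs under 100 CPM had a median of 4.77 CPM. Gzmb, which encodes granzyme B, reached 100 CPM in no mature mast cell. It still had reads in 89 of the 94, with a median of 3.28 CPM over the 94 and a highest value of 15.9 CPM. The source of such low reads was not tested for either gene. When every cell was thinned to 100000 reads, Mrgprb1 kept a read in 62 of 93 BMCPs and in all 94 mature mast cells.

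Mrgprb2 was read in most cells of both groups. It ranged from 151 to 3876 CPM in mature mast cells, with a median of 1387, and from 0.586 to 5543 CPM in BMCPs, with a median of 1202. All 94 mature mast cells and 71 of 93 BMCPs had it (76.3%, 66.4 to 84.5); 21 BMCPs were under 10 CPM and 1 lay between. The groups overlapped over nearly the whole mature range, and 52 BMCPs against 64 mature mast cells reached 1000 CPM. Pooled, Mrgprb2 was 1779 CPM in BMCPs against 1428 CPM in mature mast cells, and the log2 ratio of -0.32 was near the median of all genes. Its sign depended on the scaling: it was 0.60 per ERCC read, 0.39 per ERCC read without BMCP 55, and 0.21 from the medians over cells. No direction between the groups can therefore be given for Mrgprb2.

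Per kilobase of exon, the order of both genes differed between the groups. Mrgprb2 stood at 856 CPM per kb in BMCPs against 263 for Mrgprb1, and at 688 against 899 in mature mast cells. Within BMCPs the level of Mrgprb2 was 3.26 times that of Mrgprb1, and within mature mast cells that of Mrgprb1 was 1.31 times that of Mrgprb2. These ratios within a group do not depend on how the groups are scaled.

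**Figure D1:**
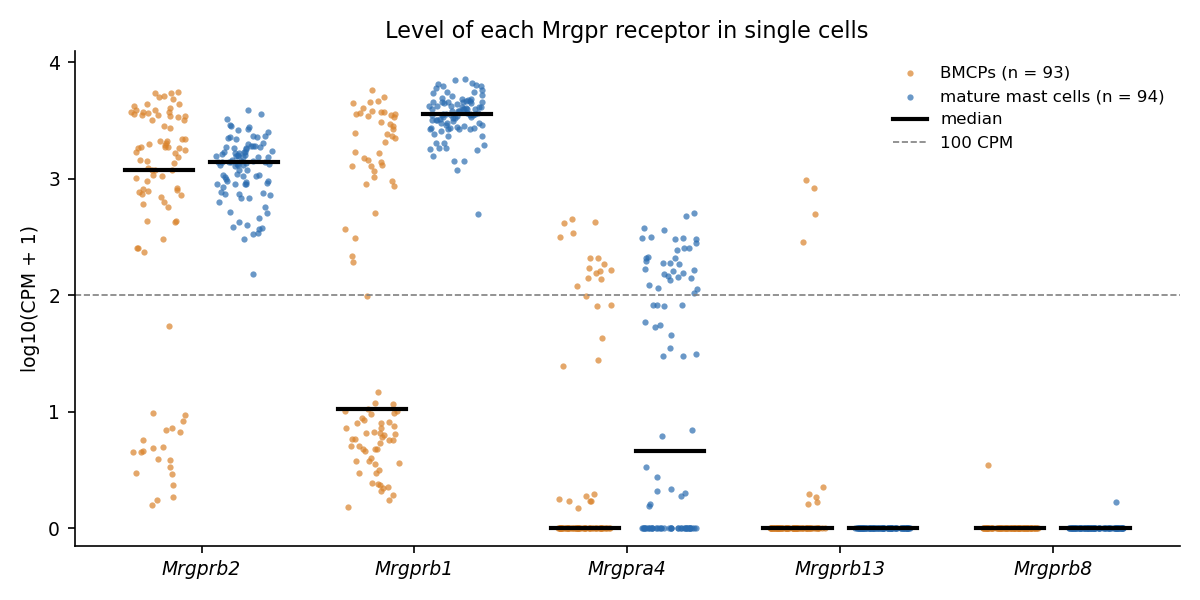
Each point is 1 cell; the y axis is log10(CPM + 1) of each receptor, black bars are medians and the dashed line is 100 CPM. Mrgprb2 is above the line in 71 of 93 BMCPs and Mrgprb1 in 42, and both are above it in all 94 mature mast cells.

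Mrgpra4 was read in a part of both groups. In mature mast cells it ranged from 0 to 509 CPM with a median of 3.80, and in BMCPs from 0 to 448 CPM with a median of 0. A level of 100 CPM was reached by 15 of 93 BMCPs (16.1%, 9.32 to 25.2). Among the mature mast cells, 33 of 94 reached it (35.1%, 25.5 to 45.6). Over the cells at 100 CPM or more its level was alike in both groups. The median was 185 CPM (quartiles 158 and 330) in the 15 BMCPs and 196 CPM (quartiles 152 and 303) in the 33 mature mast cells. This cut runs through its spread, with 12 mature mast cells and 6 BMCPs between 10 and 100 CPM. The likeness therefore holds for cells over the cut only. The pooled levels of 81.7 CPM in mature mast cells against 45.97 CPM gave a log2 ratio of 0.82, and per ERCC read it was 1.72, or 1.51 without BMCP 55. The ratio in CPM differed between the parts of the table: it was 1.74 over its first 95 columns and -0.45 over its last 94. In the first part, which held mature mast cells numbered up to 47 and BMCPs numbered up to 48, 23 of 47 mature mast cells reached 100 CPM (48.9%, 34.1 to 63.9), and in the last part 10 of 47 did (21.3%, 10.7 to 35.7). The BMCPs gave 6 of 47 and 9 of 46. What sets the parts of the table apart is not given in the labels, and its share in the result was not tested. Mrgpra4 is also the member whose reads are the least certain: of its 1210 windows of 50 bases, the read length, 13.1% matched another gene exactly and 40.1% matched another Mrgpr gene within 2 mismatches.

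Mrgprb13 was read in BMCPs only, and in very few of them. No kept mature mast cell had a read among 118831096 pooled reads, where 3 reads would be 0.0252 CPM. The BMCPs held 3832 reads, a pooled level of 32.1 CPM (31.1 to 33.1), which is at least 1270-fold higher than 3 reads over the whole mature group. These reads came from 9 cells, and 4 of them held 99.8%: BMCP 25 with 1838 reads (984 CPM), BMCP 2 with 980 (841 CPM), BMCP 36 with 539 (503 CPM) and BMCP 58 with 469 (284 CPM). The other 5 cells had at most 2 reads each. Without BMCP 25 the pooled level was 16.9 CPM, at least 671-fold higher than the same limit. The share of cells was 4 of 93 BMCPs (4.30%, 1.18 to 10.6), while none of the 94 mature cells allows one of up to 3.19%, taking 3 cells as the limit for a count of 0 here and below, so the shares of cells overlap within counting error.

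Mrgprb8 was at the limit of detection. A single read fell in mature mast cell 43 and 3 reads fell in BMCP 62, so both groups were at or under 3 reads and no ratio is read as a result. Its transcript is 87.1% identical to that of Mrgprb13 over 976 aligned bases. Only 6 of its 1074 windows of 50 bases matched Mrgprb13 exactly, and the 4 BMCPs rich in Mrgprb13 had no Mrgprb8 read.

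Read against the background, 1 of the 4 receptors with at least 5 pooled CPM (Mrgprb1) had a log2 ratio of at least 1, where 9.9% of all 10556 genes did, and 1 (Mrgprb13) had a ratio of at most -1, where 19.2% did. The median ratio of these 4 was 0.25. A count of 1 in each direction shows nothing particular to the receptors as a set.

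Of the 28 other Mrgpr genes, 24 stayed under 5 CPM in both groups and 10 had no read at all. The other 4 were Mrgprx2, Mrgpre and the pseudogenes Mrgprb11-ps and Mrgprc2-ps. The gene that the annotation names Mrgprx2 lies between Mrgprb1 and Mrgprb2 and was at 327 CPM in BMCPs against 319 CPM in mature mast cells, and 41 of 93 and 55 of 94 cells reached 100 CPM. Mrgpre, which lies outside the group on chromosome 7, was at 118 and 47.1 CPM in the same order. Its log2 ratio of mature mast cells over BMCPs was -1.30 in CPM and was not tested per ERCC read. It reached 100 CPM in 19 BMCPs and 12 mature mast cells. Mrgprb11-ps was at 26.8 and 27.9 CPM, and Mrgprc2-ps at 7.72 and 6.68 CPM. The Mrgpr group of chromosome 7 holds 28 of the 33 genes in 1499.9 kb, and 7 of these 28 reached 5 CPM. The 3 with the most reads, Mrgprb1, Mrgprx2 and Mrgprb2, start within 102 kb of each other.

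**Figure D2:**
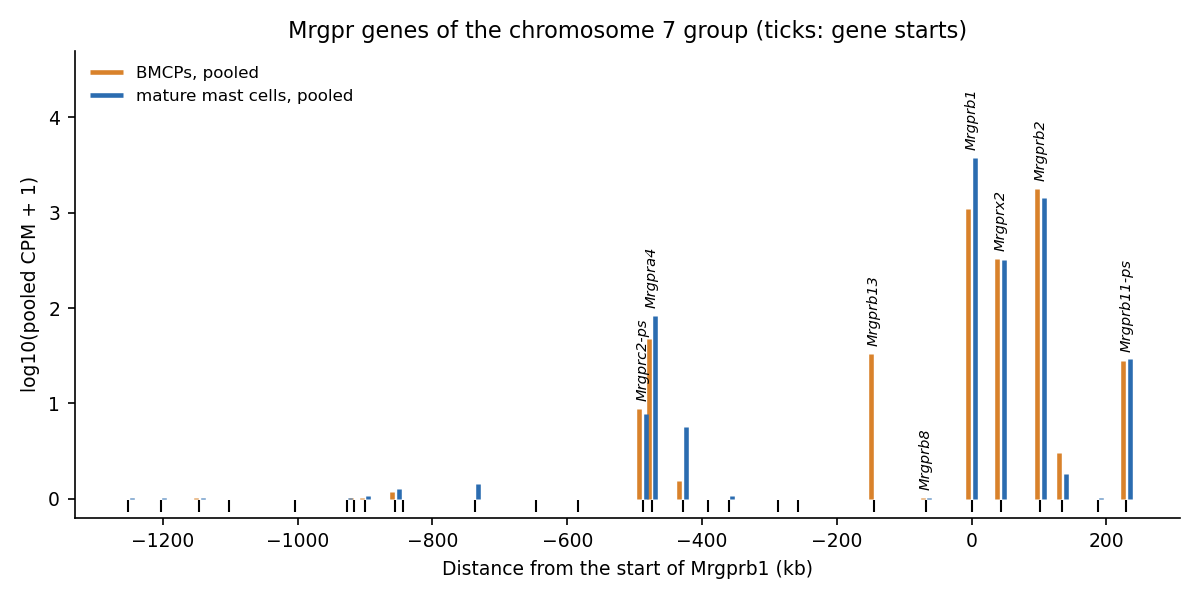
The x axis is the distance of each gene's start from that of Mrgprb1 in kb, and the y axis is log10 of the pooled CPM + 1 in BMCPs (orange) and mature mast cells (blue), drawn side by side; ticks mark gene starts. The high bars of both groups stand at Mrgprb1, Mrgprx2 and Mrgprb2, at 0, 42.98 and 101.7 kb, and Mrgprb13 has a bar in BMCPs only.

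The BMCPs were then asked in which combinations they carried the receptors. At 100 CPM, 42 of 93 had both Mrgprb2 and Mrgprb1, 29 had Mrgprb2 without Mrgprb1 (31.2%, 22.0 to 41.6), 22 had neither and none had Mrgprb1 without Mrgprb2. A count of 0 allows a share of up to 7.14% of the 42 BMCPs with Mrgprb1. The same empty class was found in each part of the table, with 19 and 17 cells in the first part and 23 and 12 in the last having both or Mrgprb2 alone. At 10 CPM there was 1 BMCP with Mrgprb1 alone against 27 with Mrgprb2 alone. At 1000 CPM the order no longer held, with 14 BMCPs over that level for Mrgprb1 alone and 32 for Mrgprb2 alone. Within the 93 BMCPs the levels of these genes had a Spearman rho of 0.03.

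The rarer receptors fell within the cells that had Mrgprb2. All 15 BMCPs with Mrgpra4 had it, and 13 of the 15 also had Mrgprb1; BMCPs 31 and 78 were the exceptions. As a share of each class, Mrgpra4 was present in 13 of 42 BMCPs with both receptors (30.95%, 17.6 to 47.1), in 2 of 29 with Mrgprb2 alone (6.90%, 0.846 to 22.8) and in 0 of 22 with neither (up to 13.6%). At 10 CPM, 21 BMCPs had Mrgpra4, all of them with Mrgprb2 and 19 of them with Mrgprb1. All 4 BMCPs with Mrgprb13 had Mrgprb2, at 1202 to 3897 CPM, and 3 of the 4 had Mrgprb1 at or under 2.57 CPM; the fourth, BMCP 58, had 369 CPM. None of these 4 had a read of Mrgpra4. Among all 93 BMCPs, 71 had Mrgprb2, 51 were under 100 CPM of Mrgprb1 and 28 had a read of Mrgpra4. Beside these shares, 4 cells show nothing particular to Mrgprb13. Mrgprx2 was present in 32 of 42 BMCPs with both receptors, in 9 of 29 with Mrgprb2 alone and in 0 of 22 with neither.

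**Figure D3:**
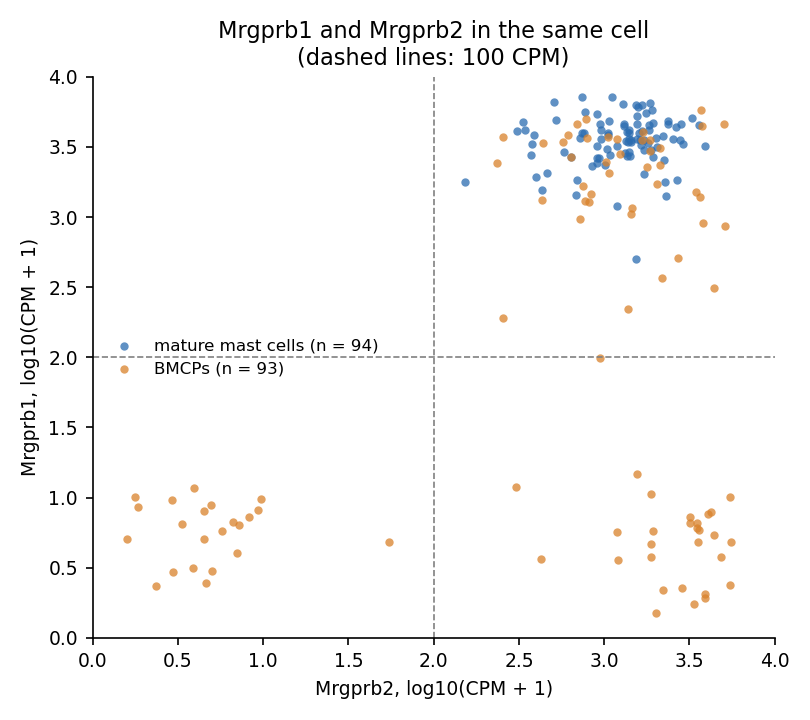
Each point is 1 cell, with log10(CPM + 1) of Mrgprb2 on the x axis and of Mrgprb1 on the y axis; dashed lines mark 100 CPM. The upper left field (Mrgprb1 without Mrgprb2) is empty, 29 BMCPs lie at the lower right, and the 94 mature mast cells all lie at the upper right.

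These classes differed in genes that the choice of receptors did not use. The median share of reads on the granule proteases Cma1, Tpsb2, Cpa3 and Mcpt4 was 6.07% in BMCPs with neither receptor, 14.1% with Mrgprb2 alone, 21.5% with both and 26.7% in mature mast cells. Gzmb had a median of 10645 CPM with neither, 5702 with Mrgprb2 alone and 5.84 with both, and 14 of 42 cells with both still reached 100 CPM of it. Mcpt8, a basophil protease, had medians of 7822, 167 and 4.12 CPM in the same order. Mcpt4, a chymase of mature connective tissue mast cells, reached 100 CPM in 1 of 22, 6 of 29 and 31 of 42 cells. Itga4, the integrin chain that pairs with β7, reached 100 CPM in 15 of 22, 14 of 29 and 7 of 42. Depth differed little, with median totals of 1226349, 1165604 and 1378270 reads, while mouse reads per ERCC read were 476, 500 and 646; their part in the classes was not tested.

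The markers of other cell types differed between the classes in no single direction. Summed over 5 basophil markers, the median was 9800 CPM in cells with neither receptor, against 1678 with Mrgprb2 alone, 648 with both and 934 in mature mast cells; Mcpt8, with a median of 7822 CPM in the first class, makes up most of that sum. Prss34 and Cd200r3 of the same list had higher pooled levels in mature mast cells (log2 ratios of 0.88 and 0.69), Itga2 had a higher one in BMCPs (-3.10), and Cebpa was at 0 in every class. Summed over 6 B cell markers, medians were 6.52, 2.47 and 3.24 CPM in the BMCP classes and 104 CPM in mature mast cells, and the highest single cells reached 71090, 1244, 1222 and 1355 CPM. BMCPs 46 and 80, which carried B cell transcripts, had 0.0354% and 0.0494% of reads on the 4 proteases, and without them 20 cells had neither receptor and the other classes were the same. The sum of 5 macrophage markers, nearly all of it Apoe, had medians of 1023, 2959 and 4023 CPM in the BMCP classes and 5526 CPM in mature mast cells, and Adgre1 and Csf1r were at 0 in every class. The 4 T cell, 4 neutrophil and 5 sensory neuron markers had a median of 0 in every class, with Cd3d, Cd3e, Cd3g, Elane, Calca, Tac1 and Trpv1 at 0 throughout, and the 4 eosinophil markers also had a median of 0, with Prg2 at 0. The highest single cells of the T cell and eosinophil sums, at 764 and 805 CPM, were BMCPs with Mrgprb2 alone. The part of these transcripts in the receptor classes was not tested.

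To place the receptors in order, the 93 BMCPs were arranged by their share of reads on the 4 proteases and split into 3 ranges of 31 cells, cut at 10.1% and 19.6%. The cuts fall within a continuous spread, with 6 and 8 BMCPs within 1 percentage point of them. Median shares were 6.31%, 15.4% and 26.99%, and 26.7% in mature mast cells, so the highest range matched the mature cells by this measure. Median totals were 1098712, 1415115 and 1355865 reads and mouse reads per ERCC read 426, 533 and 644, which also move with the order; their part was not tested.

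Mrgprb2 was present in the most cells of each range. At 100 CPM no BMCP had Mrgprb1, Mrgpra4 or Mrgprb13 without it, so Mrgprb2 could not have had fewer cells in any order. It reached 100 CPM in 10 of 31 BMCPs of the lowest range (32.3%, 16.7 to 51.4), in 30 of the middle range (96.8%, 83.3 to 99.9) and in 31 of the highest. Its median was 5.69 CPM in the lowest range, 3458 in the middle and 1047 in the highest, beside 1387 in mature mast cells. The middle range thus held the highest levels, with quartiles of 1337 and 3894 CPM against 736 and 2027 in the highest range. The log2 difference of the medians of the middle over the highest range was 1.72, and it stayed positive per ERCC read (0.90) and in the last part of the table (0.47). It was negative when the BMCPs were ordered by Mcpt4 alone (-0.61) or by falling Itga4 (-1.29). In these 93 cells, 55 were under 100 CPM of Mcpt4 and 32 had no Itga4 read; the part of such cells in the reversal was not tested.

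The rule below follows the shape seen for Mrgprb2, so Mrgprb2 meeting it is a description and adds no support. Of 3707 genes with enough reads in BMCPs, 66 (1.78%) had a middle-range median of at least 100 CPM and at least 2 times those of the lowest and the highest range. Mrgprb2 had the highest middle-range median of the 66. Ordered by Mcpt4, its medians were 1873, 817 and 1243 CPM from the lowest to the highest range. By falling Itga4 they were 1202, 725 and 1777 CPM, so neither order gave a middle peak. Split by receptor class instead, Mrgprb2 had a median of 3188 CPM (303 to 5543) in the 29 BMCPs that lacked Mrgprb1 and 1309 CPM (235 to 5135) in the 42 that had both. Their log2 difference was 1.28 in CPM and 0.27 per ERCC read.

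Mrgprb1 came second. It reached 100 CPM in 1 of 31 BMCPs of the lowest range (3.23%, 0.0816 to 16.7), in 14 of the middle (45.2%, 27.3 to 63.97) and in 27 of the highest (87.1%, 70.2 to 96.4). Its medians of 5.36, 9.14 and 2349 CPM led up to 3583 in mature mast cells, and the highest range still held 4 cells without it. Ordering by Mcpt4, by falling Gzmb or by falling Itga4 gave 4, 13 and 25 cells, 4, 10 and 28 cells, and 6, 16 and 20 cells in the 3 ranges. Under each of these orders Mrgprb2 was present in more cells of every range than Mrgprb1. No order, that by protease share included, could have given fewer, because no BMCP had Mrgprb1 without Mrgprb2 at 100 CPM. These counts therefore do not test the order. At 1000 CPM the lowest, middle and highest ranges of protease share held 8, 27 and 17 cells with Mrgprb2. They held 0, 11 and 23 with Mrgprb1.

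Mrgpra4 was present in the fewest cells of each range among the widely read members. Ordering by Mcpt4, by falling Gzmb or by falling Itga4 gave 2, 5 and 8 cells, 0, 3 and 12 cells, and 1, 5 and 9 cells. Only 35.1% of mature mast cells reached 100 CPM of it, so fewer cells do not by themselves place it later than Mrgprb1. By protease share its counts were as follows. None of 31 BMCPs in the lowest range had it (up to 9.68%), 2 of 31 in the middle (6.45%, 0.791 to 21.4) and 13 of 31 in the highest (41.9%, 24.5 to 60.9), a share whose interval overlaps the 35.1% of mature mast cells. Mrgprb13 was seen at 0, 4 and 0 of 31, a placing that other orders did not give: it was 2, 1 and 1 by Mcpt4, 3, 1 and 0 by falling Gzmb, and 4, 0 and 0 by falling Itga4. Its 4 cells held 13.1% to 17.97% of reads on the 4 proteases and 4321 to 14509 CPM of Gzmb, and Mcpt8 was at 1082 CPM in BMCP 2 and under 6 CPM in the other 3. Mrgprx2 reached 100 CPM in 1, 18 and 22 of 31, with medians of 0.910, 332 and 281 CPM and 150 CPM in mature mast cells. Mrgpre, at 6, 7 and 6 of 31, showed no such order.

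**Figure D4:**
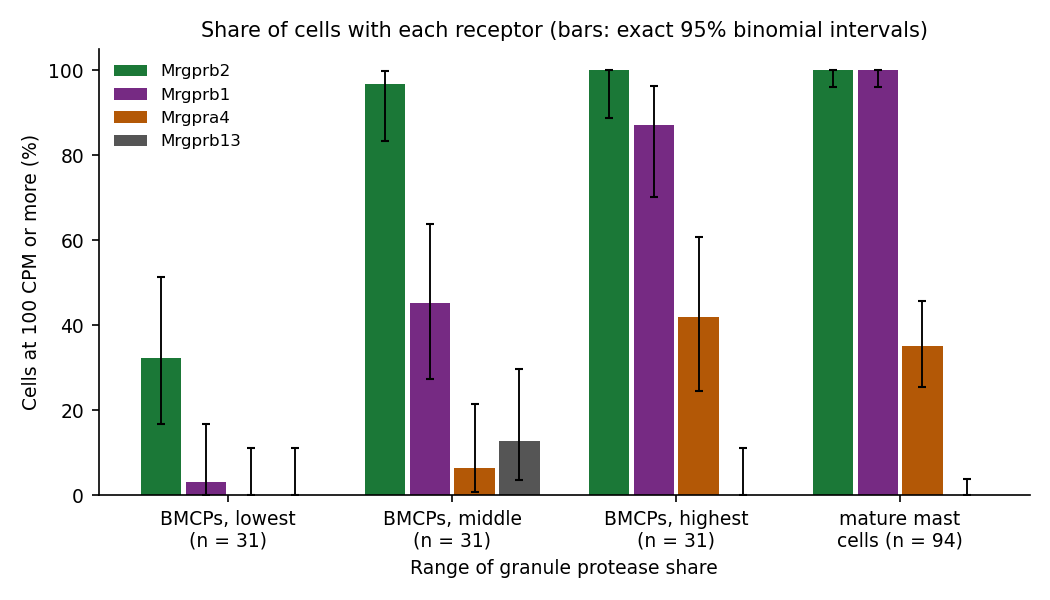
Bars give the percentage of cells at 100 CPM or more for 4 receptors, in BMCPs of the lowest, middle and highest range of granule protease share and in mature mast cells; whiskers are exact 95% binomial intervals. Mrgprb2 reaches 96.8% in the middle range, where Mrgprb1 is at 45.2% and Mrgpra4 at 6.45%; Mrgprb13 is above 0 there alone.

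**Figure D5:**
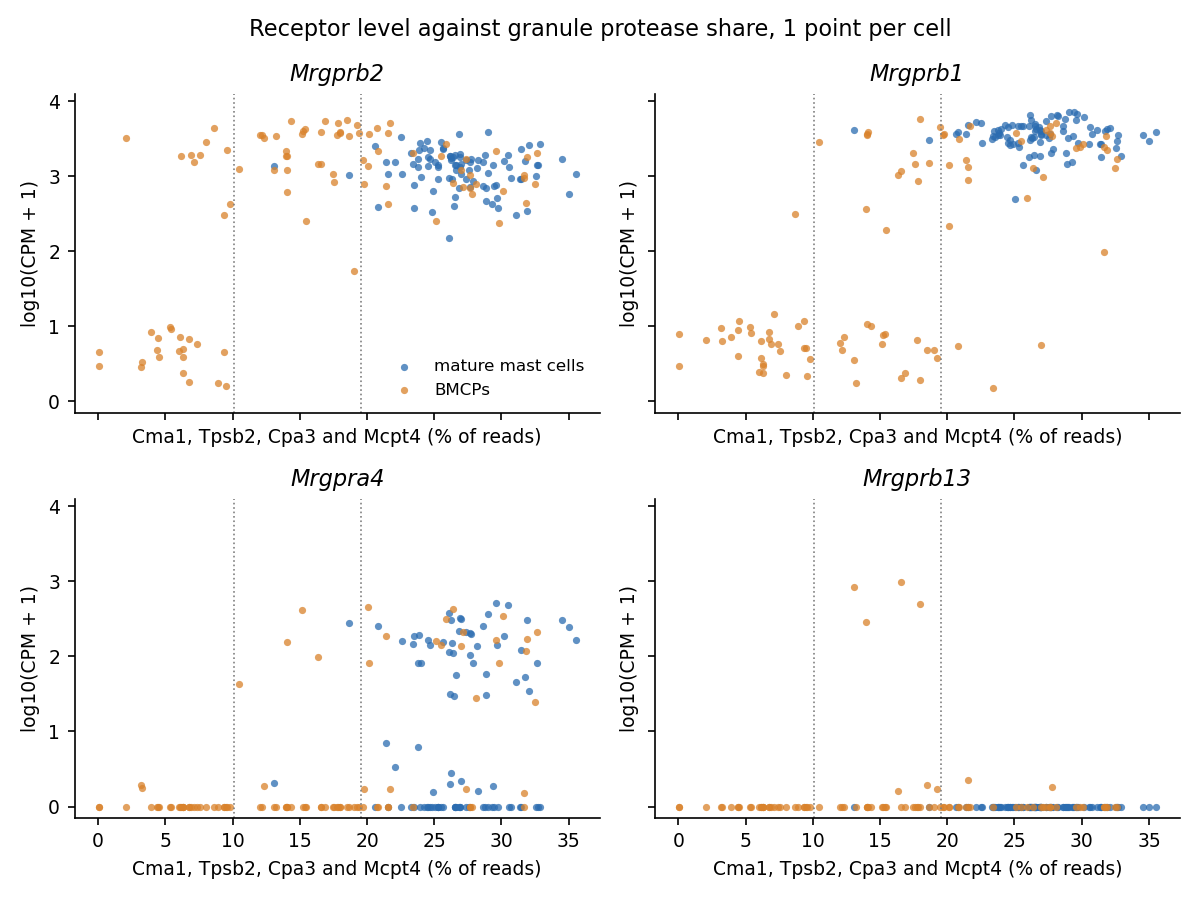
Each point is 1 cell, with the share of its reads on Cma1, Tpsb2, Cpa3 and Mcpt4 on the x axis and log10(CPM + 1) of a receptor on the y axis; dotted lines are the cuts at 10.1% and 19.6%. High Mrgprb2 values begin at lower protease shares than those of Mrgprb1 and Mrgpra4. The middle-range Mrgprb2 median of 3458 CPM is above the upper quartile of mature mast cells (1819 CPM) but under their highest value (3876 CPM).

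As a description over the 93 BMCPs, which share plates, lane and denominator, Spearman's rho with the protease share was 0.57 for Mrgprb1, 0.51 for Mrgpra4, 0.34 for Mrgprb2, 0.10 for Mrgprb13 and 0.02 for Mrgprb8. For Mrgprb13 it rests on 9 BMCPs with a read, and for Mrgprb8 on 1, so these values only tell where those cells rank. All 3 members with enough reads for this comparison were at or over 0.3, as were 3.8% of 3707 genes, whose median rho was 0.011, and none was at or under -0.3, as were 2.97%. For Mrgprb2 the value fell under 0.3 in each other order tried, at 0.055 by Mcpt4, 0.22 by falling Gzmb and 0.16 by falling Itga4, and for Mrgpra4 it was 0.2996 by falling Itga4. In the 94 mature mast cells the same rho was -0.05 for Mrgprb1, -0.17 for Mrgprb2 and 0.10 for Mrgpra4, all weak.

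The balance of Mrgprb1 to Mrgprb2 within a cell does not depend on scaling. As a ratio of reads, not corrected for the 2.01-fold longer exons of Mrgprb1, it had a median of 2.70 in mature mast cells (quartiles 1.96 and 4.21) and of 1.64 in the 42 BMCPs with both (0.810 and 3.07). Among these BMCPs it was 0.0702 in the 1 cell of the lowest range, 1.38 in the 14 of the middle and 2.12 in the 27 of the highest. In the 14 that still had Gzmb at 100 CPM it was 0.740 (0.222 and 1.54), and in the 28 that did not it was 2.17 (1.31 and 3.73). Among these sets of more than 1 cell, the BMCPs with Gzmb thus had the median balance farthest from that of mature mast cells, with overlapping spreads. The medians were alike in both parts of the table, at 1.45 and 1.67 for the BMCPs and 2.48 and 2.92 for mature mast cells.

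The genes whose CPM followed each receptor most closely over BMCPs were taken from 3702 genes other than Mrgpr genes. For Mrgprb1 they were Pla2g7 (rho 0.69), which encodes platelet-activating factor acetylhydrolase, Ecm1 (0.66), the tryptase gene Tpsab1 (0.62), Stard13 (0.61) and Mcpt4 (0.61). For Mrgpra4 they included the chymase gene Cma1 (0.52), Stard13 (0.51), Pmp22 (0.47) and Rgs13 (0.46), an inhibitor of G protein signalling. For Mrgprb2 they were Apoe (0.45), Tpsg1 (0.44), which encodes the membrane-bound tryptase, the nucleoside transporter gene Slc29a1 (0.40), Kcne3 (0.40) and Cyp11a1 (0.40), the enzyme that opens steroid synthesis. Over the 94 mature mast cells the closest were Tmem129 (0.35) for Mrgprb1, Morf4l2 (0.38) for Mrgprb2 and Tnfrsf1b (0.38) for Mrgpra4. No gene was among the first 5 of a receptor in both groups. Each value is among the highest of 3702, and how high unrelated genes would reach was not tested.

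In CPM, most genes through which these receptors signal differed little between the groups. Of 31 signalling genes, 28 were read at 5 CPM or more; 3 had a log2 ratio of at least 1, where 9.9% of all genes did, and 3 of at most -1, where 19.2% did, with a list median of -0.20 beside -0.25 for all genes. These counts show nothing particular to the list. The higher ones in mature mast cells were Gnaq (36.7 against 13.8 CPM, 1.35), the alpha subunit of Gq, Gnai1 (65.02 against 26.8 CPM, 1.25), an alpha subunit of Gi, and Rgs13 (413 against 158 CPM, 1.38). The higher ones in BMCPs by CPM were the calcium channel gene Orai2 (46.03 against 18.4 CPM, -1.28), the receptor kinase gene Grk5 (35.7 against 9.74 CPM, -1.77) and Rgs2 (309 against 147 CPM, -1.06), an inhibitor of Gq. The ratio of Mrgprb2 changed sign per ERCC read, and whether these 3 would was not tested. Several were read in few cells. Gnaq had reads in 27 of 94 mature mast cells and 16 of 93 BMCPs, Orai2 in 18 and 31, and Grk5 in 19 and 19. Gnai1 had them in 56 and 18, Rgs13 in 92 and 60, and Rgs2 in 72 and 75. The highest CPM were those of Gnai2 (1083 in BMCPs and 1012 in mature mast cells), Gnai3 (627 and 440.2) and Gnb1 (485 in both).

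Of 10 genes for peptides that can act on receptors of this family, none reached 5 CPM, 6 had no read, Tac1 for substance P among them, and the highest level was 1.42 CPM. Of 14 other G protein-coupled receptors able to act on mast cells, 8 were read at 5 CPM or more. In CPM, none of the 8 had a log2 ratio of at least 1 and only P2ry1 was at most -1, with -1.07. Its direction per ERCC read was not tested. The same shares of all genes, 9.9% and 19.2%, stand beside these counts. The median of the 8 was -0.04. Reads of P2ry1 were in 19 of 94 mature mast cells and 21 of 93 BMCPs. The endothelin receptor gene Ednra stood at 297 CPM in BMCPs and 466 in mature mast cells, Adora3 for adenosine at 237 and 249, and P2ry14 for UDP-sugars at 239 and 242.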

How the data were processed

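The deposited table holds raw read counts per gene and cell, which the authors made with GSNAP and HTSeq 0.5.3p3 on mm10, per the submitters' processing notes. The annotation release and the use of strand are not given in the sources used here. Per the labels' protocols, poly(A) RNA of single cells in 2 plates was amplified with 23 PCR cycles, without molecular identifiers, and read as 50 bp single-end reads in 1 lane, so intervals cover counting error only. The 92 ERCC and 5 summary rows stayed out of totals; 3.11% of all reads in the table were ambiguous, and the table counts 0 reads aligned to more than 1 place in every cell, so how reads shared by near-identical genes were treated cannot be told. GENCODE M21 gave symbols to 45143 of 46078 rows (98.0%).

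Cells under 100000 reads on mouse genes (2 BMCPs) were left out; no other filter was used and doublets were not called. CPM, pooled CPM with exact Poisson intervals, shares at 100 CPM with Clopper-Pearson intervals at 95% (for a count of 0, the limit of 3 cells), log2 ratios with 1 CPM added and Spearman's rho were computed in Python 3.11.15 with numpy 2.4.6, pandas 2.3.3 and scipy 1.17.1, and TMM factors with edgeR 4.0.16 in R 4.3.3. The calculation was tested on simulated data. Likeness was computed over genes with at least 50 CPM and a read in 25% of BMCPs. Named genes were the receptors, other Mrgpr genes at 5 CPM or more, the first 5 by likeness (1 of them is not reported here), the 3 most abundant of each list and those past a log2 ratio of 1. Members and lists were chosen with earlier results of these data known. Promoter windows came from RefSeq tables on GRCm38.p6. Alternatives were other scalings, levels, orders, pseudocounts and sets of cells.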

Additional observations from a re-analysis of the deposited data

Results flagged for a closer look

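A cell left out of all comparisons for its depth carried receptor reads above the limit that a count of 0 allows. BMCP 93 had 36972 reads on mouse genes, of which 68 were Mrgprb1 (1839 CPM), 36 were Mrgprb2 (974 CPM) and 6 were Mrgpra4 (162 CPM), where 3 reads would be 81.1 CPM. It had no read of Mrgprb8 or Mrgprb13. BMCP 6, the other cell left out, had 3978 reads with 1 of Mrgprb1 and 2 of Mrgprb2, under the same limit of 3 reads.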

How the results depend on the processing

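No paired analysis was possible because replicate numbers only name cells and each group is 1 pooled sample. Of 166 alternative values, 88 were the same within counting error or a set tolerance, 72 moved and 6 reversed; the column parts, the set without BMCPs 46 and 80, and ERCC scaling without BMCP 55 were chosen after seeing the data, as was each alternative for the Mrgprb2 medians. Unless a cause follows from the setting itself, the cause was not tested.

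For Mrgprb1 (log2 ratio 1.77), values were 2.02 with TMM, 2.69 per ERCC read (2.48 without BMCP 55), 1.97 without granule genes in the totals, 1.76 as a mean over cells, 8.39 as a median, 1.81 without the top cell of each group, 1.76 thinned, 1.91 and 1.66 in the first and last columns and 1.74 without BMCPs 46 and 80. Under the same settings in the same order, up to thinning, for Mrgprb2 (-0.32) they were -0.070, 0.60 (0.39), -0.12, -0.26, 0.21, -0.30, -0.25, -0.30 in the last columns and -0.35 without BMCPs 46 and 80, and -0.33 in cells of at least 500000 reads. For Mrgpra4 (0.82) in that order they were 1.06, 1.72 (1.51), 1.02, 1.02, 2.26, 0.94, 1.05, then 1.74 and -0.45 in the first and last columns, and 0.71 with a pseudocount of 10. For Mrgprb13 (-5.05, a value set by the added CPM) in that order they were -4.93, -4.68 (-4.88), -5.31, -4.86, 0 as a median, -4.17, -4.97, then -5.85 and -3.14 in the first and last columns, -5.08 without BMCPs 46 and 80, -5.06 at 500000 reads, and -8.33 and -2.07 with pseudocounts of 0.1 and 10. For Mrgprb8 (-0.02), they were -0.21 with a pseudocount of 0.1 and -0.070 in the last columns.

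After thinning, 66.7% of BMCPs had a read of Mrgprb1. At 1000 CPM the shares were 55.9% for Mrgprb2, 0% for Mrgprb13 and 0% for Mrgpra4. Ordered by Mcpt4, rho was 0.055 for Mrgprb2, -0.029 for Mrgprb13 and 0.32 for Mrgpra4. By falling Gzmb it was 0.22 for Mrgprb2, 0.16 for Mrgprb8 and -0.10 for Mrgprb13. By falling Itga4 it was 0.32 for Mrgprb1, 0.16 for Mrgprb2, -0.091 for Mrgprb8, -0.15 for Mrgprb13 and 0.30 for Mrgpra4. Over all kept cells it was 0.033 for Mrgprb2 and -0.13 for Mrgprb13, and thinned it was -0.016 for Mrgprb13. Mrgprb8 had reads in 1 BMCP only and had no read left after thinning. BMCPs with Mrgprb2 alone numbered 17 in the first and 12 in the last columns, which hold fewer cells.

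The log2 difference of Mrgprb2 medians between the middle and highest range (1.72) was -0.61 ordered by Mcpt4, -1.29 by falling Itga4, 1.39 without granule genes, 0.90 per ERCC read, 0.47 in the last columns and 0.89 from means. Between BMCPs with Mrgprb2 alone and with both (1.28) it was 0.27 per ERCC read, 0.74 in the last columns and 0.78 from means.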

Other observations

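Mrgprb2 was 1 of 66 genes whose median over BMCPs was highest in the middle range of protease share by the rule given above. Others of these, chosen after their values were seen, included Ctsg, which encodes cathepsin G, at 3.97 CPM in the lowest range, 771 in the middle, 247 in the highest and 2.92 in mature mast cells. Itgb2, an integrin chain of leukocytes, stood at 208, 787, 375 and 452 CPM, and Selenop, a selenium carrier, at 249, 1064, 179 and 303 CPM. In 18 of the 66 the mature median was under 10 CPM, whereas Mrgprb2 was at 1387 CPM there.

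Mrgprx1, a family member under 5 CPM, was at 0.544 CPM in BMCPs and 4.67 CPM in mature mast cells, and few cells held its reads. BMCP 17 held 62 of the 65 reads in BMCPs. The 555 reads in mature mast cells came from 11 cells, with 182 in mature mast cell 31. Mrgprc3-ps had no read in BMCPs and 53 in the other group, of which mature mast cell 34 held 50. Mrgprb9-ps had 240 reads in BMCPs, all in BMCP 1, and 97 of its 99 reads in mature mast cells came from mature mast cell 32.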
